A study of Mus musculus with 18 samples.

Results

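A set of 9 genes that carry the signal from the TCR to NF-kB, or that feed back on it, were followed through naive and tolerized CD4+ T cells. They were Prkcq, Rasgrp1, Bcl10, Malt1, Tnfaip3, Tnip1, Cyld, Birc3 and Traf1, chosen by name for their place in this pathway, and they make up 9 of the 37991 genes in the count files. All 9 passed the filter on low counts, with raw counts between 387 and 147584 in the 18 libraries. RNA-seq was performed on splenic CD4+ T cells, enriched by magnetic sorting, of Tg4 mice of 6 to 12 weeks and of both sexes. These mice carry a transgenic TCR that recognizes a peptide of myelin basic protein, and the study describes their CD4+ T cell repertoire as skewed. Tolerized mice (T) had received 7 subcutaneous doses of the 4Y variant of this peptide at rising amounts, 3 to 4 days apart, and control mice (N, predominantly naive cells) had received PBS on the same schedule. In the resting groups (N0 and T0) the cells were harvested 2 h after a final injection of PBS, and in the antigen groups (NAg and TAg) 2 h after 80 ug of peptide. In the last pair of groups (NPI and TPI) the cells were instead treated for 2 h in culture with 20 ng/ml PMA and 2 uM calcium ionophore A23187 (PI), so that these cells differ from the other groups also by culture. Each of the 6 groups had 3 biological replicates.

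PKC-theta, the product of Prkcq, is the protein kinase C isoform of the T cell synapse, and RasGRP1 is the exchange factor that couples diacylglycerol to Ras. PMA stands in for diacylglycerol and the ionophore raises calcium, so PI reaches both proteins without the TCR. Downstream of PKC-theta, Bcl10 and the paracaspase Malt1 assemble into a complex that activates the IKK kinases and frees NF-kB. The remaining genes act on the ubiquitin chains and adaptor proteins of this pathway. A20 (Tnfaip3), its partner ABIN1 (Tnip1) and the deubiquitinase CYLD restrain it, while the ubiquitin ligase cIAP2 (Birc3) and the adaptor TRAF1 work at TNF-family receptors.

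Total counts per library ranged from 10758571 to 24119489, with the highest in the PI groups. Reads of 4 Y-linked genes showed that the groups were not matched for sex. N0 and NAg libraries had at most 15 such reads, all NPI and TPI libraries had at least 5599, and replicates 1 and 2 of T0 and replicate 3 of TAg were the Y-positive libraries of their groups. The NPI against N0 comparison therefore cannot be told apart from sex, whereas TPI and NPI were all Y-positive. Only T0 and TAg held both kinds of library. A Y-linked score as covariate, used below, draws on these groups and cannot settle the part of sex in NPI against N0. The summed normalized count of 13 neutrophil markers was 156 to 526 in N0 and NAg and 149 to 238 in NPI, against 2247 to 3656 in T0, 2694 to 4974 in TAg and 500.1 to 813 in TPI. Compared with T0, 11 of these 13 were lower in TPI and 0 higher (36.3% and 32.0% of all genes). Mpo stayed at a mean of 384 in T0 and 388 in TPI and made up much of the TPI sum. The 5 regulatory T cell markers summed to 2004 to 4659 in N0 and 10095 to 12358 in T0. The 8 T cell markers summed to 29005 to 35161 in the resting groups and 16877 to 23879.7 in the antigen groups. In the PI groups they summed to 52531 to 60141. Single markers went different ways, with means from N0 to NAg of 6943 and 2185 for Cd4 but 1974 and 2917 for Cd5. Mean Cd28 went from 4260 in N0 to 26002 in NPI and from 4032 in T0 to 26034 in TPI. At an adjusted p under 0.05, 4 of the 8 were higher and 4 lower in NPI than in N0 (28.6% and 32.7% of all genes). In TPI against T0, 4 were higher and 3 lower (32.0% and 36.3%). In bulk RNA, fewer cells of a type and less RNA per cell cannot be told apart.

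Read counts were put on a common scale by TMM, with library sizes centred on their geometric mean, and are called normalized counts here. Per kb of exon, the level of Tnfaip3 was the highest of the 9 genes in both PI groups, at 17184 normalized counts per kb in NPI and 10127 in TPI. At rest the order was different, with Rasgrp1 (1317 per kb) and Prkcq (1199 per kb) at the top in N0 and Bcl10 (267 per kb) at the bottom. Malt1 led after antigen, with 2925 normalized counts per kb in NAg and 3913 in TAg. Reads of Tnfaip3 alone took 0.697% to 0.806% of all counts in the NPI libraries, compared with 0.0179% to 0.0473% in N0. The ratio of the highest to the lowest group mean spanned 1.82 for Prkcq to 35.4 for Tnfaip3, and these ratios stood at percentiles 10.8 and 97.8 of all tested genes.

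**Figure D1:**
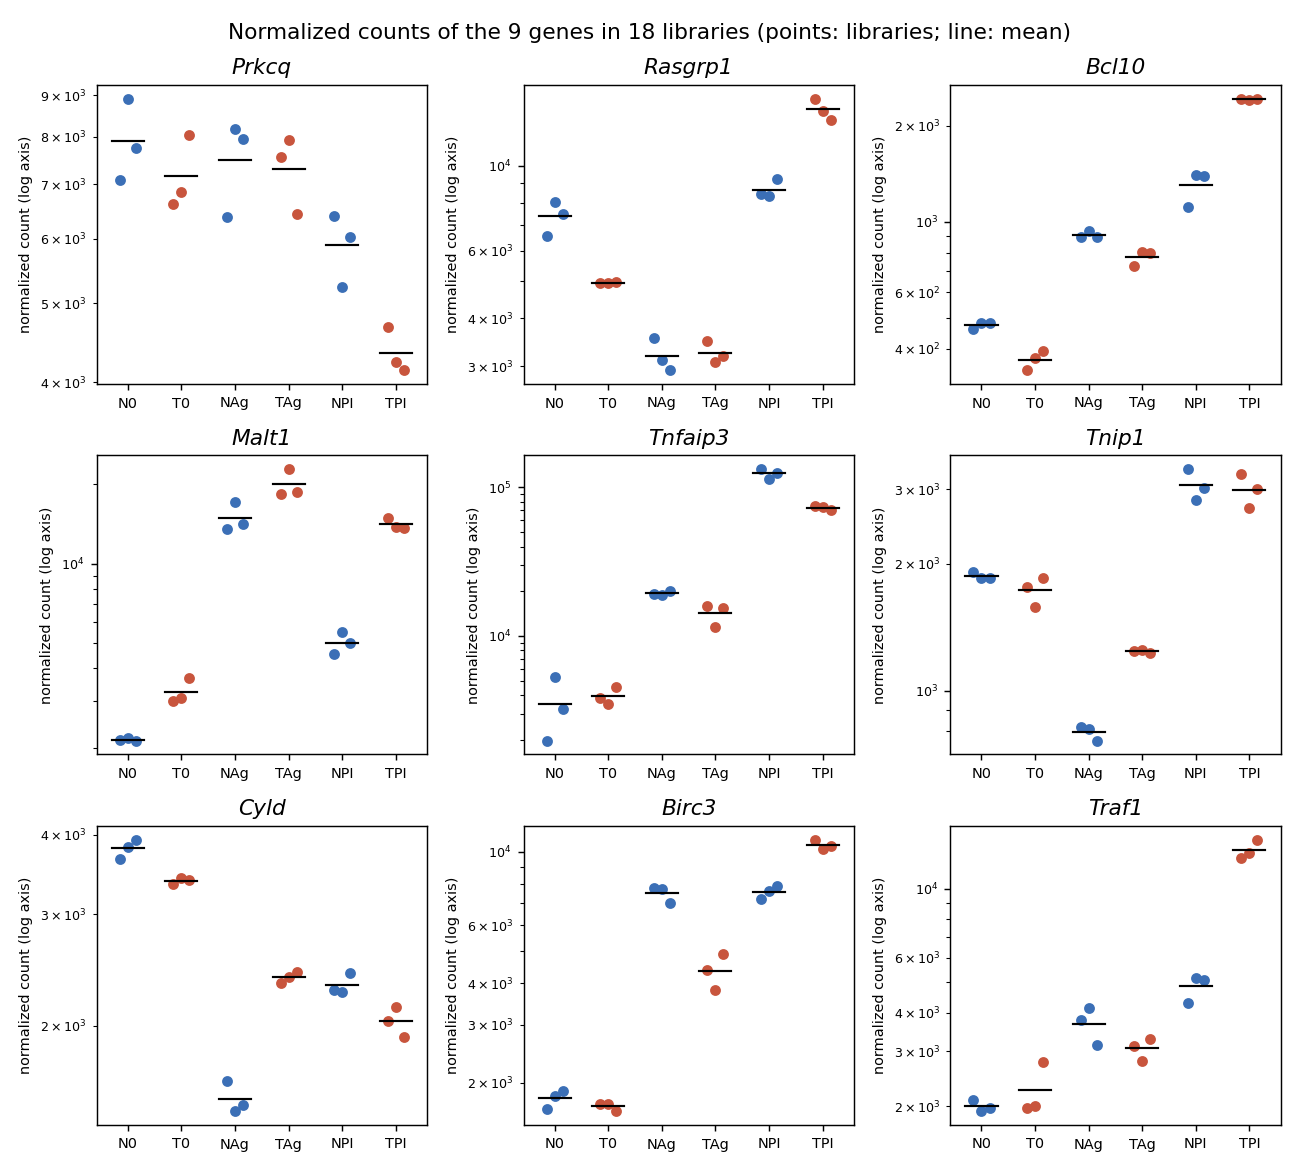
Normalized counts of the 9 genes in each of the 18 libraries, on log axes that differ between panels, with naive groups in blue, tolerized groups in red and a line at each group mean. The 3 TPI libraries of Rasgrp1, Bcl10, Birc3 and Traf1 lie above all other libraries, while those of Prkcq lie below all others.

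Injection of peptide changed most of these genes in both cell states, and also most of all genes tested. At an adjusted p under 0.05, 65.5% of all genes passed in NAg against N0 and 59.8% in TAg against T0. In NAg against N0, 5 members rose and 3 fell at an adjusted p under 0.05, compared with 32.1% and 33.4% of the 17240 genes tested. Malt1 rose the most in NAg, 6.95-fold, followed by Tnfaip3 at 5.56-fold and Birc3 at 4.18-fold. Rasgrp1, Tnip1 and Cyld fell together in NAg, by 1.21, 1.23 and 1.31 on the log2 scale. The same 5 members rose and the same 3 fell in TAg against T0, where 29.9% of all genes rose and 29.8% fell. In both comparisons the falls were near the share of all genes. The study's limits add a change of at least 2-fold and a mean normalized count above 50 in the higher group. They were put here on edgeR calls and fold changes alone. The study itself required calls by both DESeq2 and edgeR and took fold changes from DESeq2. With these limits 3 members rose and 3 fell in NAg (14.2% and 16.2% of all genes), whereas 4 rose and 0 fell in TAg (12.1% and 11.3%). The libraries of 8 members did not overlap between the groups in either comparison, against 68.1% of all genes in NAg against N0 and 64.5% in TAg against T0. The median log2 fold change over the 9 members was 0.88 in NAg and 0.45 in TAg, beside 0.00 and -0.05 over all genes.

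Under PI every member passed the test in both cell states, with 7 higher and 2 lower. The background was 28.6% of genes higher and 32.7% lower in NPI against N0, and 32.0% higher and 36.3% lower in TPI against T0. Tnfaip3 had the largest rise of the 9 in both states, 35.4-fold in NPI and 18.6-fold in TPI. Rasgrp1 and Tnip1, which fell after antigen, were higher after PI. Prkcq and Cyld were the members that fell after PI. By the study's limits 5 members rose in NPI (10.1% of all genes) and 6 in TPI (13.3%), and none fell (10.3% and 13.7%). All 9 members had no overlap between libraries in both comparisons, against 66.4% and 72.5% of all genes. Among only the Y-positive libraries, TPI against T0 still had 9 members past the test, where the same fit called 11832 of 17239 genes.

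**Figure D2:**
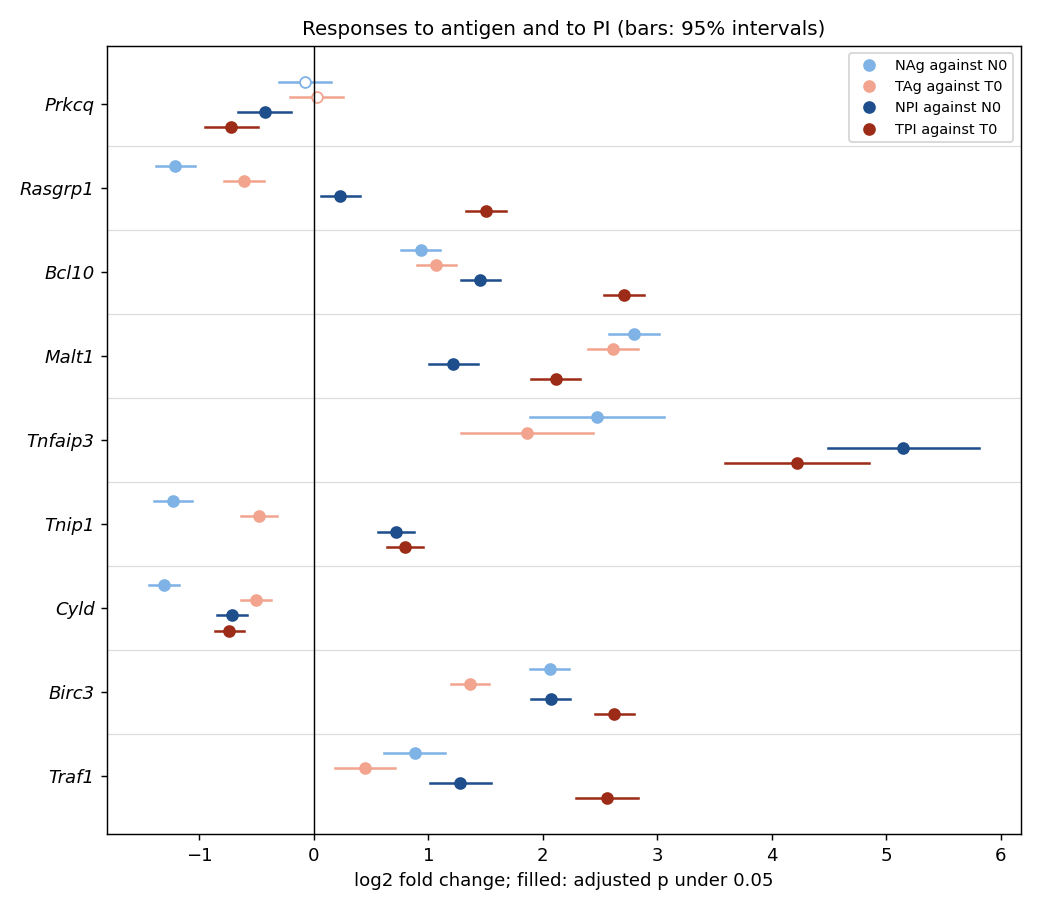
Log2 fold changes of the 9 genes after antigen and after PI, each against the resting cells of the same state, with 95% intervals from the edgeR fit as bars and filled points for an adjusted p under 0.05. Rasgrp1 and Tnip1 lie below 0 after antigen and above 0 after PI, whereas Cyld lies below 0 in all 4 comparisons.

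Tolerized and naive cells were compared at rest and after each stimulus. In T0 against N0, 3 of the 9 passed the test, Malt1 as higher and Rasgrp1 and Bcl10 as lower (20.4% of all genes passed), and by the study's limits none was higher or lower (2.61% and 0.644% of all genes). After antigen, Malt1, Tnip1 and Cyld were higher and Bcl10 and Birc3 lower in TAg than in NAg (background 20.9% higher and 18.5% lower), again with none past the study's limits (3.61% and 2.05%). After PI 8 members passed, with Rasgrp1, Bcl10, Malt1, Birc3 and Traf1 higher and Prkcq, Tnfaip3 and Cyld lower in TPI than in NPI (background 18.2% and 19.7%). By the study's limits Malt1 and Traf1 were higher in TPI and none was lower, against 3.38% and 2.22% of all genes. The number called over all genes was also smaller at rest than after either stimulus. Libraries of the 2 states did not overlap for 5 members at rest, 6 after antigen and 8 after PI, against 35.0%, 47.7% and 50.5% of all genes. When scores of erythroid and neutrophil markers were added to the model as covariates, the number of members past the test was 0 at rest, 1 after antigen and 5 after PI, while the same fit called 15, 445 and 2272 of all genes. The summed neutrophil markers did not overlap between tolerized and naive libraries in any condition. The scores and cell state therefore cannot be separated in that fit. Some log2 fold changes grew or hardly moved in that fit, with larger standard errors. Malt1 went from 0.60 to 0.85 (SE 0.28) and Bcl10 from -0.36 to -0.48 (SE 0.25) at rest, and Cyld from 0.64 to 0.61 (SE 0.20) after antigen. Others shrank, such as Rasgrp1 at rest, from -0.57 to -0.20 (SE 0.26), and Prkcq after PI, from -0.44 to -0.066 (SE 0.18). The part that other cells took in these differences was not tested.

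**Figure D3:**
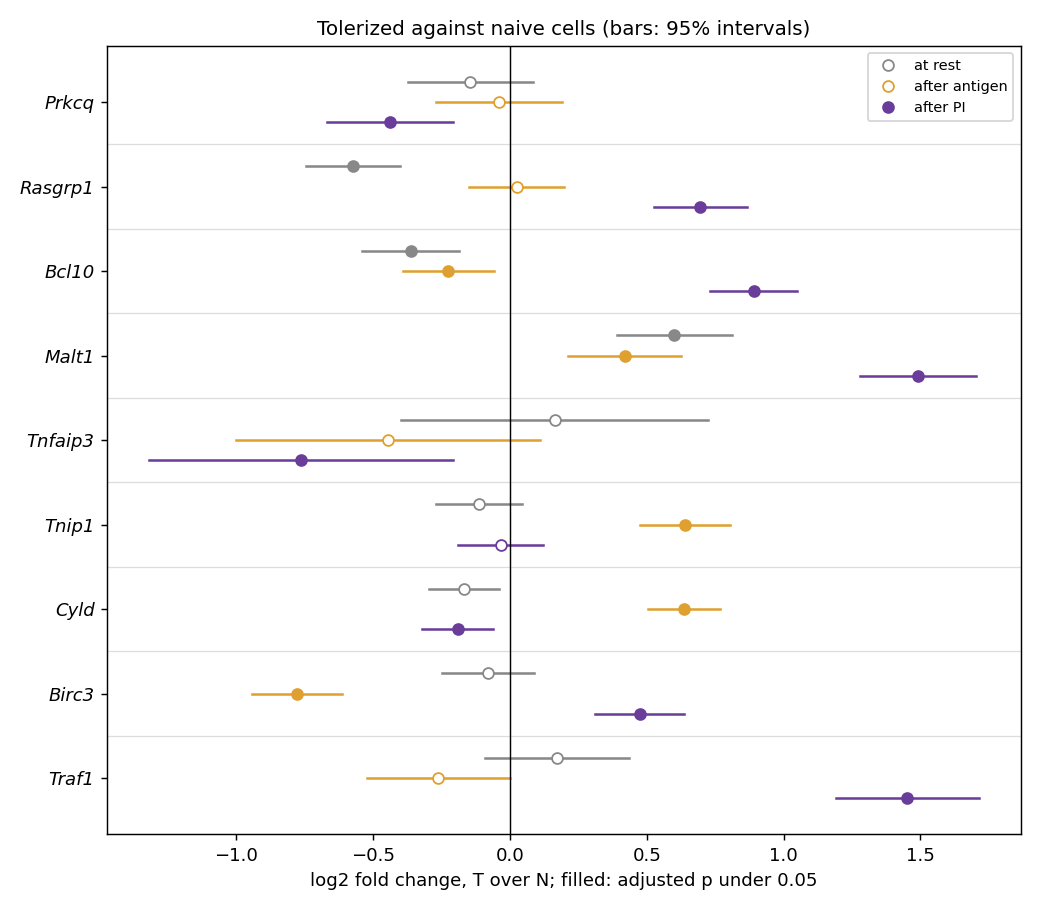
Log2 fold changes of tolerized over naive cells at rest (grey), after antigen (orange) and after PI (purple), with 95% intervals as bars and filled points for an adjusted p under 0.05. Bcl10 and Birc3 lie below 0 after antigen and above 0 after PI, and Traf1 reaches 1.45 after PI.

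Of the upstream genes, Prkcq (chromosome 2, 11093740 to 11222853 in NCBIM37, the mm9 build, as for the other genes) varied the least. Its normalized counts were 7091, 8919 and 7744 in N0 and 6621, 6839.8 and 8043 in T0. After antigen they were 6384, 8180.0 and 7943 in NAg and 7555, 7925 and 6428 in TAg. PI left 6404, 5231 and 6033 in NPI and 4679, 4228 and 4136 in TPI. The resting and antigen groups overlapped throughout, the NPI libraries lay below those of N0, T0 and TAg and overlapped NAg by its first replicate, and the TPI libraries lay lowest. The change with antigen did not pass the test, with 95% intervals of -0.31 to 0.15 in NAg and -0.20 to 0.26 in TAg on the log2 scale. For PI, Prkcq fell by 0.43 in NPI (SE 0.11, adjusted p = 0.00217) and by 0.72 in TPI (SE 0.11, adjusted p = 7.43e-06). It was also lower in TPI than in NPI, by 0.44 (SE 0.11, adjusted p = 0.00341), which is a comparison among Y-positive libraries. With the erythroid and neutrophil marker scores this difference was -0.066 (adjusted p = 0.865), in a fit that cannot separate these scores from cell state. In T0 the Y-positive replicates 1 and 2 were the lower ones, as was the Y-positive replicate 3 in TAg. With a Y-linked score as covariate the log2 fold change in NPI was -0.17 (adjusted p = 0.313), and within the Y-positive libraries the log2 fold change in TPI was -0.61 (adjusted p = 5.07e-07). The difference in PI response did not pass (-0.29, adjusted p = 0.209), but it passed with the Y-linked score (-0.45, adjusted p = 0.0377) and with only the 4 groups of the contrast in the fit (-0.38, adjusted p = 0.0319).

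Rasgrp1 (chromosome 2, 117105729 to 117168737) had the opposite course under the 2 stimuli. At rest its normalized counts were 6575, 8052 and 7497 in N0 and 4949, 4951 and 4971 in T0, so that T0 lay below N0 in every library. They dropped to 3545, 3106 and 2925 in NAg and 3496, 3068 and 3179 in TAg, which overlapped each other. In the PI groups they were 8438, 8327 and 9217 in NPI and 14984, 13934 and 13192 in TPI, with every TPI library above every other library of the series. Its level was thus highest in TPI, then NPI, N0 and T0, and lowest in the overlapping TAg and NAg groups. The resting difference was -0.57 on the log2 scale (SE 0.083, adjusted p = 3.29e-05). Antigen lowered Rasgrp1 by 1.21 in naive cells (SE 0.084, adjusted p = 3.19e-12) and by 0.61 in tolerized cells (SE 0.083, adjusted p = 6.53e-07), and the responses differed by 0.60 (SE 0.12, adjusted p = 0.000581). PI raised it by 1.50 in tolerized cells (SE 0.084, adjusted p = 8.22e-14) and by 0.23 in naive cells (SE 0.082, adjusted p = 0.0174), a difference of 1.27 (SE 0.12, adjusted p = 5.33e-08). The small rise in NPI no longer passed without N0 replicate 1 (0.11), N0 replicate 3 (0.20) or NPI replicate 3 (0.18), or with the Y-linked score (0.26, adjusted p = 0.0712), and with the erythroid and neutrophil marker scores it was 0.030 (adjusted p = 0.901). Rasgrp2, a related exchange factor that acts on Rap1, fell by 4.45 in NAg and 3.64 in TAg, from 7539 ± 805 normalized counts (SD, n = 3) in N0 to 344 ± 60.4 in NAg.

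Bcl10 and Malt1, which act in the same complex, rose under both stimuli. In both cell states the estimated rise was larger after PI for Bcl10 and larger after antigen for Malt1. A difference between the stimuli was not tested, and they differ also by culture and, in naive cells, by sex. Bcl10 (chromosome 3, 145587322 to 145597247), the adaptor that forms the filaments of the complex, had 463, 481 and 482 normalized counts in N0 and 342, 373 and 394 in T0. Antigen brought it to 893, 936 and 894 in NAg and 728, 805 and 798 in TAg. With PI it reached 1115, 1397 and 1395 in NPI and 2413, 2400.4 and 2429.8 in TPI. No 2 neighbouring groups in this order overlapped, from TPI through NPI, NAg, TAg and N0 to T0. The rise was 0.93 on the log2 scale in NAg (SE 0.083, adjusted p = 3.12e-10) and 1.07 in TAg (SE 0.084, adjusted p = 4.44e-11), and a difference between these did not pass (95% interval of the difference -0.10 to 0.38). Under PI it was 1.45 in NPI (SE 0.082, adjusted p = 1.89e-13) and 2.71 in TPI (SE 0.084, adjusted p = 1.18e-18), and here the responses differed by 1.25 (SE 0.11, adjusted p = 5.33e-08). Bcl10 was therefore lower in tolerized cells at rest (-0.36, SE 0.085, adjusted p = 0.00363) and after antigen (-0.22, SE 0.081, adjusted p = 0.0298) but higher after PI (0.89, SE 0.078, adjusted p = 3.72e-09). The difference after antigen did not pass without NAg replicate 2 (-0.20) or TAg replicate 1 (-0.18), or with the Y-linked score (-0.21, adjusted p = 0.0572).

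Malt1 (chromosome 18, 65590617 to 65638477), the protease of the complex, was the member with the largest estimated response to antigen. It had 2137, 2184 and 2128 normalized counts in N0 and 3002, 3083 and 3692 in T0, a higher level in each tolerized library. After antigen the counts were 13566, 17162 and 14073 in NAg and 18390.2, 22827 and 18724 in TAg. After PI they were 4521, 5521 and 4978 in NPI and 14833, 13785 and 13621 in TPI, so that the TPI libraries fell among those of NAg whereas NPI stayed well below. Malt1 was higher in tolerized cells in all 3 conditions, by 0.60 at rest (SE 0.10, adjusted p = 0.000198), 0.42 after antigen (SE 0.099, adjusted p = 0.00169) and 1.49 after PI (SE 0.10, adjusted p = 1.24e-10). The antigen response was 2.80 in NAg and 2.62 in TAg (95% interval of the difference -0.47 to 0.11). For Tnfaip3 the 95% interval of the response in NAg, 1.89 to 3.06, also held 2.80. The PI response of Malt1 was 1.22 in NPI and 2.11 in TPI, and these differed by 0.89 (SE 0.14, adjusted p = 7.65e-05).

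**Figure D4:**
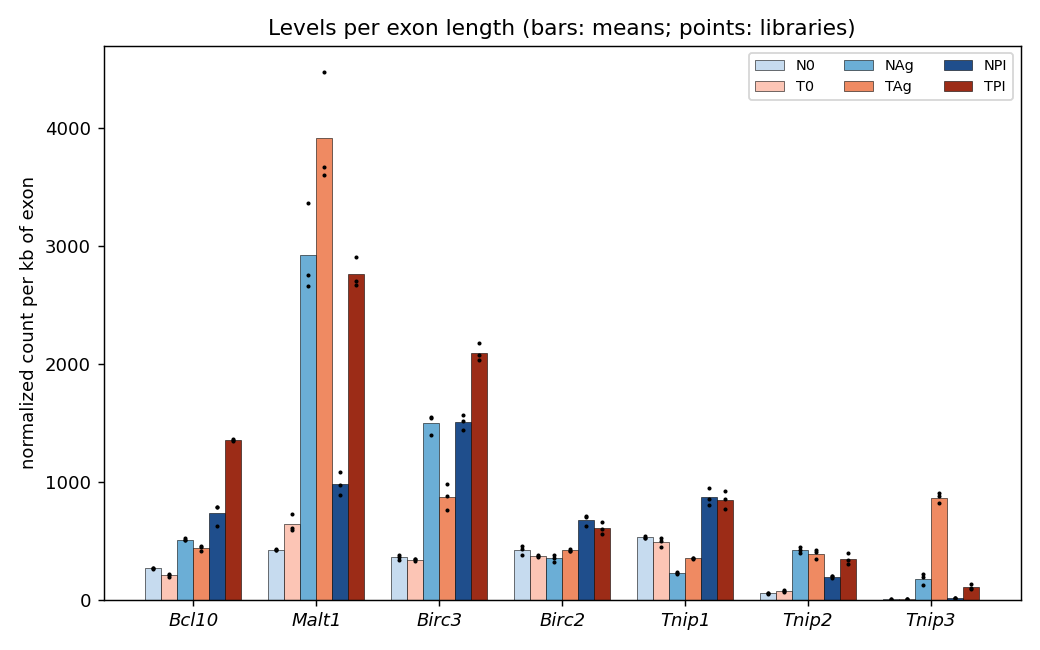
Normalized counts per kb of exon of Bcl10 and Malt1, of Birc3 and its paralog Birc2, and of Tnip1 and its paralogs Tnip2 and Tnip3, in the 6 groups, with bars for means and points for the 3 libraries. Tnip3 reaches 866 in TAg against 179 in NAg.

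Among the feedback genes, promoter sequence was examined because several are textbook targets of NF-kB. RefSeq windows of 300 bases (250 before and 50 after the start site, GRCm38.p6) were examined for 8 of the 9 members. No window of Malt1 was examined, so whether its promoter holds a match was not tested. The decameric kappaB consensus was searched on both strands, overlapping matches included, and occurs in 4.51% of 32841 such windows. There were 4 members with a match, namely Bcl10 241 bases upstream of the start site, Tnfaip3 at 125 and 12, Tnip1 at 58, 57 and 56 (3 overlapping matches) and Cyld at 155. Prkcq, Rasgrp1, Birc3 and Traf1 had none in these windows. The AP-1 motif TGANTCA, found in 7.81% of all windows, was present in that of Tnfaip3, 136 bases upstream, shortly before the first kappaB match. The 250 bases before the start site are given for the 4 genes with a match, since these span members that rose (Bcl10, Tnfaip3) and that fell (Tnip1, Cyld) after antigen, with the kappaB matches in capitals.
Tnfaip3 (chr10:19015411-19015660, - strand): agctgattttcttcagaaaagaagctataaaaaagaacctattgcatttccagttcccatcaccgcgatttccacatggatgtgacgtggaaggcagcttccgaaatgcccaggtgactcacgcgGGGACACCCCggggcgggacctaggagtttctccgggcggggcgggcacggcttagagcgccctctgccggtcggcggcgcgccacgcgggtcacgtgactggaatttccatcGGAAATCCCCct
Tnip1 (chr11:54962941-54963190, - strand): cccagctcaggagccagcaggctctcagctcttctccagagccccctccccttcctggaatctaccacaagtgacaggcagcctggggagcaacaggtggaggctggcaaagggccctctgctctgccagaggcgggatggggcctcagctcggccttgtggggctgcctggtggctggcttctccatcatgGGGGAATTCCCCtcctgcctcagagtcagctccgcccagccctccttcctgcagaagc
Cyld (chr8:88696778-88697027, + strand): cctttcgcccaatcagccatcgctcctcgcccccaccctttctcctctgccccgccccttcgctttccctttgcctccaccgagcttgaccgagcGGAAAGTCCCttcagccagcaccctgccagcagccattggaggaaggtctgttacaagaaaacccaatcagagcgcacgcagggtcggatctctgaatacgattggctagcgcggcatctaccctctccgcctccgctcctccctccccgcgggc
Bcl10 (chr3:145924012-145924261, + strand): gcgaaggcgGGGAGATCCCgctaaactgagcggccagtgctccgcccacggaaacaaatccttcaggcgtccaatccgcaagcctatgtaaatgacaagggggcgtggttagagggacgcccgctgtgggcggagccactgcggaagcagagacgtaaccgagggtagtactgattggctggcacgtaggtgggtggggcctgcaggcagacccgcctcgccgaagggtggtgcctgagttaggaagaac

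Tnfaip3 (chromosome 10, 18720716 to 18735463), which encodes the ubiquitin-editing enzyme A20, had the widest range of the 9. Its normalized counts were 1967, 5314 and 3232 in N0 and 3802, 3458 and 4525 in T0. After antigen they were 19233, 18930.4 and 20226 in NAg and 15862, 11491 and 15517 in TAg. PI brought them to 133099, 114135 and 125275 in NPI and 74880.1, 74416 and 70232 in TPI. The N0 libraries were spread widely and enclosed those of T0, whereas naive cells were above tolerized cells in every library after antigen and after PI. The rise was 2.47 on the log2 scale in NAg (SE 0.27, adjusted p = 1.94e-06), 1.86 in TAg (SE 0.27, adjusted p = 3.16e-05), 5.15 in NPI (SE 0.30, adjusted p = 4.22e-09) and 4.22 in TPI (SE 0.29, adjusted p = 1.57e-08). Tnfaip3 was lower in TPI than in NPI by 0.76 (SE 0.26, adjusted p = 0.0321), but without NPI replicate 1 or 3 or any 1 of the TPI libraries the adjusted p lay between 0.0704 and 0.0872. The differences between states after antigen (-0.45, adjusted p = 0.196) and between their responses to antigen (-0.61, adjusted p = 0.282) and PI (-0.93, adjusted p = 0.0976) did not pass. N0 replicate 2 weighed on these values, and without it the responses differed by -1.02 for antigen (adjusted p = 0.00617) and -1.34 for PI (adjusted p = 0.000879), and T0 was higher than N0 by 0.59 (adjusted p = 0.0400). Without N0 replicate 1 instead, neither response difference passed, and T0 against N0 was -0.13 (adjusted p = 0.672). Which N0 library is the unusual one was not tested. With DESeq2 the difference in PI response passed (-0.92, adjusted p = 0.0411), and with only TAg and NAg in the fit their difference was -0.43 (adjusted p = 0.0119).

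Tnip1 (chromosome 11, 54724289 to 54776419), the ubiquitin-binding partner of A20, moved with Rasgrp1 rather than with Tnfaip3 after antigen. It had 1905, 1848 and 1849 normalized counts in N0 and 1762, 1576 and 1845 in T0, and although these groups did not overlap, the difference of -0.11 did not pass (adjusted p = 0.33). In the antigen groups the counts were 819, 808 and 760.0 in NAg and 1243, 1249 and 1228 in TAg, with every TAg library above every NAg library. In the PI groups they were 3351, 2826 and 3014 in NPI and 3259.9, 2712 and 3006 in TPI, and these overlapped. Tnip1 fell by 1.23 in NAg (SE 0.079, adjusted p = 7.61e-13) and by 0.48 in TAg (SE 0.077, adjusted p = 7.97e-06), and the response of tolerized cells was the smaller by 0.75 (SE 0.11, adjusted p = 2.32e-05). With PI it rose by 0.71 (SE 0.076, adjusted p = 1.49e-08) and 0.79 (SE 0.076, adjusted p = 1.72e-09), and the 95% interval of the difference was -0.14 to 0.30. With the erythroid and neutrophil marker scores the rise in TPI was 0.45 (adjusted p = 0.166). The summed neutrophil markers of T0 and TPI did not overlap, so that fit cannot separate the scores from PI treatment in tolerized cells. Its paralogs took another course. Tnip3 had 5.94, 4.18 and 6.94 normalized counts in N0, 861, 732 and 494 in NAg, 29.2, 26.5 and 29.7 in T0 and 3502, 3190.5 and 3416 in TAg. It was higher in tolerized cells by 2.29 at rest (SE 0.45, adjusted p = 0.00205), 2.28 after antigen (SE 0.16, adjusted p = 1.02e-08) and 2.75 after PI (SE 0.20, adjusted p = 1.49e-08). Tnip2 rose by 2.92 in NAg and 2.41 in TAg. Per kb of exon in TAg, Tnip3 (866 normalized counts) lay above Tnip2 (391) and Tnip1 (351).

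Cyld (chromosome 8, 91220927 to 91275844), which removes the ubiquitin chains that signal to IKK, fell in every stimulated group. Normalized counts were 3662, 3823 and 3930.0 in N0 and 3346, 3415 and 3399 in T0, where the groups did not overlap although the difference did not pass the test (-0.17, adjusted p = 0.0585). They were 1639.6, 1467 and 1501 in NAg and 2339, 2388 and 2429 in TAg. After PI they were 2275, 2263 and 2420.0 in NPI and 2034, 2141 and 1924 in TPI. The NAg libraries were the lowest of the series and TAg overlapped NPI. Antigen lowered Cyld by 1.31 in naive cells (SE 0.064, adjusted p = 3.67e-15) and by 0.51 in tolerized cells (SE 0.063, adjusted p = 1.48e-07), and the responses differed by 0.80 (SE 0.089, adjusted p = 6.13e-07), with the smallest adjusted p among the 9 differences in antigen response. The PI response was -0.71 in NPI and -0.74 in TPI, with a 95% interval of -0.21 to 0.16 for the difference. The small gap between TPI and NPI (-0.19, adjusted p = 0.0186) did not pass without NPI replicate 3 (-0.16), TPI replicate 1 (-0.17) or TPI replicate 3 (-0.15), while the gap at rest passed without N0 replicate 1 (-0.20, adjusted p = 0.0389) and with DESeq2 (adjusted p = 0.0269).

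Birc3 (chromosome 9, 7848699 to 7873186), the ligase cIAP2, changed places between the cell states with the stimulus. At rest the normalized counts were 1664, 1831 and 1889 in N0 and 1725, 1728 and 1642 in T0 and overlapped. Antigen gave 7757, 7724 and 7008 in NAg and 4389, 3806 and 4915 in TAg, with naive cells higher in every library. PI gave 7188, 7581 and 7851 in NPI and 10882, 10185 and 10372 in TPI, with tolerized cells higher in every library. NAg and NPI overlapped, whereas TPI lay above TAg in every library. The response to antigen was 2.06 in NAg (SE 0.082, adjusted p = 7.23e-17) and 1.36 in TAg (SE 0.081, adjusted p = 2.56e-13), a difference of -0.70 (SE 0.11, adjusted p = 7.05e-05). To PI it was 2.07 in NPI (SE 0.082, adjusted p = 2.6e-16) and 2.63 in TPI (SE 0.084, adjusted p = 1.99e-18), a difference of 0.55 (SE 0.11, adjusted p = 0.000865) that had an adjusted p of 0.0846 with the erythroid and neutrophil marker scores as covariates. The tolerized-to-naive gap after PI exceeded that after antigen by 1.25 (SE 0.11, adjusted p = 4.66e-09). Its neighbouring paralog Birc2 (cIAP1) ranged over 1096 ± 87.3 normalized counts (SD, n = 3) in NAg to 2122 ± 145 in NPI. Both genes share sequence, and reads that could be assigned to either would make their counts uncertain.

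Traf1 (chromosome 2, 34797270 to 34817292), an adaptor that binds cIAP proteins through TRAF2, set TPI apart from the other 5 groups. Its normalized counts were 2095, 1928 and 1976 in N0 and 1973, 2001 and 2784 in T0, and the third T0 library, the Y-negative one, stood above the others. After antigen they were 3789.7, 4122 and 3136 in NAg and 3134, 2793 and 3291 in TAg, which overlapped. After PI they were 4288, 5182 and 5094 in NPI and 12504, 12979 and 14371 in TPI, and every TPI library was above every other library. Traf1 rose by 0.88 in NAg (SE 0.12, adjusted p = 4.85e-06) and 0.45 in TAg (SE 0.12, adjusted p = 0.00433). The rise in TAg did not pass without T0 replicate 1 (0.33, adjusted p = 0.0526). It was 0.76 among Y-positive libraries, of which 1 is TAg, and 0.090 among Y-negative libraries, of which 1 is T0, the one with the high value, and with 1 library in a group these are values without a test. The difference in antigen response did not pass (-0.43, adjusted p = 0.093), but did so with DESeq2 (-0.48, adjusted p = 0.0231) and without NAg replicate 3 (-0.54, adjusted p = 0.0316). The same 2 settings gave a lower level in TAg than in NAg, with log2 fold changes of -0.30 (adjusted p = 0.0358) and -0.36 (adjusted p = 0.0325), where the fit over all libraries had -0.26 (adjusted p = 0.107). Among Y-negative libraries, 2 of TAg and 3 of NAg, it was -0.31 (adjusted p = 0.0353). The difference in antigen response among these was -0.79, a value without a test as it rests on 1 library of T0. PI raised Traf1 by 1.28 in NPI (SE 0.13, adjusted p = 5.62e-08) and 2.56 in TPI (SE 0.13, adjusted p = 3.29e-12), and the responses differed by 1.28 (SE 0.17, adjusted p = 4.12e-05).

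The responses of the 2 cell states were compared directly by interaction contrasts. For antigen, 3 members had a higher log2 response in tolerized cells, namely Rasgrp1, Tnip1 and Cyld, each of them a smaller fall (14.6% of all genes higher). Birc3 had a lower one, a smaller rise (7.09% of all genes lower). For PI, 5 members responded more in tolerized cells, which were Rasgrp1, Bcl10, Malt1, Birc3 and Traf1, and none less (12.7% and 7.52% of all genes). These contrasts share the resting groups. The naive arm of the PI contrast sets Y-positive NPI against Y-negative N0, while T0 is mixed. With the Y-linked score the same 5 passed, at 0.66 to 1.25, along with Prkcq. That score draws on T0 and TAg, the groups with both kinds of library, and cannot check the naive arm. The gap between TPI and NPI differed from that between TAg and NAg for 7 members (37.2% of all genes). It was the higher for Rasgrp1, Bcl10, Malt1, Birc3 and Traf1, by 0.67 to 1.71 on the log2 scale, and the lower for Tnip1 (-0.67) and Cyld (-0.83). For Prkcq it was -0.40 (adjusted p = 0.0512), and it passed without NAg replicate 2 or 3, NPI replicate 2, TAg replicate 3 or TPI replicate 1, with values from -0.48 to -0.42, with the Y-linked score (-0.47, adjusted p = 0.00859) and with only the groups of the contrast in the fit (-0.38, adjusted p = 0.0421).

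Other genes of the pathway also moved in both directions. Of 27 other upstream and IKK genes, 15 rose and 9 fell in NAg and 16 rose and 8 fell in TAg, with 14 and 9 in NPI and 16 and 9 in TPI. Over all genes, 32.1% rose and 33.4% fell in NAg, 29.9% and 29.8% in TAg, 28.6% and 32.7% in NPI and 32.0% and 36.3% in TPI, so the falls in the list were near the share of all genes. Of 16 other genes of ubiquitin editing, 8 rose and 5 fell in NAg, 10 and 4 in TAg, 11 and 4 in NPI and 13 and 3 in TPI. The median log2 fold change of the upstream list was 0.28 in NAg and 0.26 in TAg, and that of the ubiquitin list 0.22 and 0.42, beside 0.00 and -0.05 over all genes. The 11 genes of NF-kB subunits and their inhibitors were all higher in NAg, TAg and TPI, and 10 of them in NPI. Between the states, 8 of these 11 were lower and 1 higher in TAg than in NAg, whereas 8 were higher and 1 lower in TPI than in NPI. Over all genes 18.5% were lower and 20.9% higher in TAg, and 18.2% were higher and 19.7% lower in TPI. These lists were put together with results of these data known.

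The genes whose levels were most like those of each member over the 18 libraries were picked by Pearson's r of log2 normalized counts among 11554 expressed genes. These values describe libraries that share 6 groups and carry no test. Rel, which encodes the NF-kB subunit c-Rel, came first for Birc3 (r = 0.995), followed by the calcium channel gene Orai1 (r = 0.994). Cyld was most like Dnajc3 (r = 0.993) and Rbl1 (r = 0.990), and Bcl10 most like Prkab2 (r = 0.992) and Stk40 (r = 0.990). For Malt1 they were Arid5b (r = 0.984) and the kinase gene Jak2 (r = 0.982), for Tnfaip3 Gm17024 (r = 0.986) and Ccno (r = 0.983), and for Rasgrp1 Xlr4b (r = 0.986) and 4930523C07Rik (r = 0.981). Tnip1 was closest to Tmem66 and Chkb (both r = 0.984), Traf1 to Dnttip1 (r = 0.975) and Sdf2 (r = 0.974), and Prkcq to Ipo8 (r = 0.958) and Zfp143 (r = 0.945). Among the members themselves, the highest value was that of Bcl10 with Traf1 (r = 0.951) and the lowest that of Cyld with Birc3 (r = -0.870).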

How the data were processed

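RNA was depleted of ribosomal RNA and sequenced by the authors, who aligned the reads with TopHat2 2.1.1 to mm9, counted them per Ensembl gene with HTSeq 0.9.1, and deposited raw counts for each library without normalization. The handling of strand and of overlapping genes is not given in the sources used here. The members share no exon bases with another gene of the annotation. Symbols and positions came from the NCBIM37 annotation, which held 37205 of the 37991 identifiers.

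The counts were scaled by TMM. Genes whose mean normalized count reached 3 in 1 or more groups were tested with edgeR 4.0.16 (robust quasi-likelihood F test, R 4.3.3), with 1 mean per group over all 18 libraries. Every adjusted p is a Benjamini-Hochberg value over the 17240 genes of this test unless another fit is named. DESeq2 1.42.0 was run as an alternative, along with the settings given in the closing section. In tests on simulated counts, where 100 genes were given a log2 difference of 1, between 85 and 89 of them were recovered in comparisons of the cell states and between 39 and 52 in differences of responses. All 9 members, listed paralogs, and the 2 genes most like each member were named by rule, and 1 further gene of that rule is not reported here. Members and lists were chosen with earlier results of these data known. Libraries were split by Y-linked reads after the data were seen.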

Additional observations from a re-analysis of the deposited data

Results flagged for a closer look

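The response to antigen differed between tolerized and naive cells, by the test of the difference itself, for 4 of the 9 genes (21.7% of all genes). On the log2 scale the tolerized response minus the naive one was 0.60 for Rasgrp1, 0.75 for Tnip1, 0.80 for Cyld and -0.70 for Birc3. For the first 3 genes both states fell and the tolerized cells fell less, and for Birc3 both rose and the tolerized cells rose less.

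The response to PI differed for 5 genes, all with a larger rise in tolerized cells. The differences were 1.27 for Rasgrp1, 1.25 for Bcl10, 0.89 for Malt1, 0.55 for Birc3 and 1.28 for Traf1. N0 was Y-negative and NPI Y-positive, while T0 held both kinds of library, so the naive response cannot be told apart from sex. With a Y-linked score as covariate the 5 differences were 1.25, 1.23, 0.77, 0.66 and 1.18. That score draws on T0 and TAg, the groups with both kinds of library, and cannot check the naive response.

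The gap between tolerized and naive cells differed between the stimuli for 7 genes. The gap after PI minus that after antigen was 0.67 for Rasgrp1, 1.12 for Bcl10, 1.07 for Malt1, 1.25 for Birc3 and 1.71 for Traf1, and it was -0.67 for Tnip1 and -0.83 for Cyld. The antigen groups hold Y-negative libraries, apart from replicate 3 of TAg, and the PI groups hold Y-positive libraries, and the part of sex in this contrast was not tested by a split.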

How the results depend on the processing

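With erythroid and neutrophil marker scores as covariates, the number of members past the test went from 3 to 0 in T0 against N0, from 5 to 1 in TAg against NAg and from 8 to 5 in TPI against NPI, and the standard errors of these comparisons grew. That fit cannot separate the scores from cell state, since the summed neutrophil markers of the 2 states did not overlap in any condition. The counts of members stayed within 1.5 times their value under each other alternative. Directions turned for values that had not passed the test. Rasgrp1 in TAg against NAg was -0.0092 with DESeq2 size factors and -0.0091 with DESeq2. With only the groups compared, Prkcq in TAg against T0 was -0.0074 and the PI difference of Tnip1 was -0.0024. With marker scores, Prkcq was 0.063 in NAg against N0, 0.36 in T0 against N0 and 0.30 in TAg against NAg, and its antigen difference was -0.057. In the same fit Tnip1 was 0.19 and Birc3 0.16 in T0 against N0, Traf1 was -0.063 there, Tnip1 was 0.11 in TPI against NPI, and its PI difference was -0.087. Prkcq in TAg against T0, T0 against N0 and TAg against NAg was -0.059, 0.024 and 0.044 with the Y-linked score and -0.055, 0.023 and 0.045 among Y-negative libraries, and -0.039 in TAg against T0 among Y-positive ones. The causes were not tested.

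Leaving out 1 library at a time turned other values that had not passed. Their ranges were -0.13 to 0.59 for Tnfaip3 and -0.017 to 0.26 for Traf1 in T0 against N0, -0.20 to 0.025 for Prkcq in NAg against N0, and -0.063 to 0.11 for Prkcq in TAg against T0. In TAg against NAg they were -0.14 to 0.045 for Prkcq and -0.035 to 0.11 for Rasgrp1, and in TPI against NPI -0.088 to 0.041 for Tnip1. The PI difference of Cyld ranged over -0.061 to 0.020 and the antigen difference of Prkcq over -0.0011 to 0.22.

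The replicate numbers did not pair the libraries, since no correlation of same-numbered deviations exceeded 0.0889. With the replicate number as a block the members past the test were 7 instead of 8 in TPI against NPI, where Tnfaip3 was lost (-0.76, adjusted p = 0.0517), and no other call changed.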

Other observations

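Further genes of the same pathway stood out in the listed groups. Map3k8, which encodes the kinase Tpl2 of the NF-kB and ERK pathways, rose by 4.30 on the log2 scale in NAg (SE 0.11, adjusted p = 2.48e-20) and by 3.28 in TAg (SE 0.10, adjusted p = 1.43e-18), and it was already higher in T0 than in N0 by 0.76 (SE 0.11, adjusted p = 4.35e-05). Map3k14, which encodes NIK, the kinase of the alternative NF-kB pathway, rose by 2.11 in NPI (SE 0.09, adjusted p = 8.99e-16) and by 2.64 in TPI (SE 0.09, adjusted p = 9.63e-18). Prkca, a classical protein kinase C gene, was higher in tolerized cells by 1.69 after antigen (SE 0.15, adjusted p = 2.98e-07) and by 1.12 after PI (SE 0.15, adjusted p = 1.76e-05). N4bp1, which encodes a substrate of the Malt1 protease, was higher in TPI than in NPI by 1.25 (SE 0.09, adjusted p = 3.43e-10), while Tab1, an adaptor of the TAK1 kinase, had a log2 fold change of -1.12 there (SE 0.13, adjusted p = 2.41e-07).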
